A study of Homo sapiens with 6 samples.

Results

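The TRIM (tripartite motif) genes were followed in HT29 cells, an established human colorectal adenocarcinoma line. The title of the series asks what the laminin α1 chain, a subunit of the basement membrane protein laminin, changes in these cells in culture. Per the labels, 3 arrays held RNA from HT29 cells with a control construct and 3 arrays RNA from HT29 cells with a laminin α1 expression construct, all grown for 7 days. The arrays of a group are separate culture passages per the design text, and neither the construct's sequence nor the number of clones is stated in the labels. Members were all genes whose symbol is TRIM followed by digits and that have a probe set naming no other gene. There were 54 such genes among 18417 genes measured. Of these, 45 lay above the level filter (a mean log2 value over all 6 arrays above the 25th percentile of genes, 5.50) and were tested.

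TRIM proteins are a large family of E3 ubiquitin ligases. Most carry a RING finger, which binds a ubiquitin-conjugating enzyme, followed by B-box zinc fingers and a coiled coil, and their C-terminal domain selects the target. Many take part in innate immunity, where interferon raises some of them, and TRIM5, TRIM14, TRIM21, TRIM22 and TRIM25 are among the best known of these. Other members act on chromatin, the cytoskeleton, muscle proteins or cell growth.

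Among 45 tested TRIM genes, 2 rose and 1 fell in the laminin α1 arrays past an adjusted p of 0.05 in limma, a linear model fitted over all 13812 tested genes. TRIM31 rose 1.41-fold, TRIM16 rose 1.36-fold and TRIM8 fell 1.24-fold. The members called were 6.67% of those tested, and over all genes 5.29% were called (2.69% higher and 2.59% lower), so the share of the family was near that of the array. Without the level filter 4.21% of all genes were called. None of TRIM5, TRIM14, TRIM21, TRIM22 and TRIM25 passed. Of the 4 of these that were tested, 2 had an unadjusted p under 0.05, as had 16.7% of all genes. With each array weighted by its estimated precision TRIM14, TRIM21 and TRIM25 passed as higher and TRIM5 as lower, in a setting that called 34% of all genes. The median log2 difference (laminin α1 minus control) was 0.22 for these 4, 0.01 for the other 41 tested members and -0.01 over all genes tested.

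LAMA1, the gene of the laminin α1 chain, had log2 values of 5.60 to 5.71 in control and 5.71 to 5.79 in laminin α1 arrays, and its difference of 0.09 did not pass (limma adjusted p = 0.535), so it does not check the labels. Of 9 colon epithelium markers, 8 lay above the level filter in both groups and CDH17 in control arrays alone. The list had a mean log2 value of 10.6, 10.5 and 10.5 in control and 10.3 in each of the laminin α1 arrays. Its median difference was -0.03, with 4 positive and 5 negative differences, and the groups overlapped for 6 of the 9 markers. CDH17, an intestinal cadherin, was at 6.52, 6.61 and 6.62 in control and 4.81, 4.95 and 5.04 in laminin α1 arrays (difference -1.65), and it entered the test only through its control values. KRT20, an intestinal keratin, differed by -0.35 (limma adjusted p = 0.00863), a call lost without control replicate 2 or laminin α1 replicate 2 (adjusted p = 0.0628 and 0.0599). Over all genes 2.59% were called lower. Of markers of other cells, 5 of 7 for fibroblasts, 3 of 7 for leukocytes and 1 of 5 for endothelium lay above the filter and 0 passed the test. Those above it were COL1A1, COL1A2, COL3A1, THY1 and PDGFRB for fibroblasts, CD14, CD68 and ITGAM for leukocytes, and CDH5 for endothelium. The brightest of these were CD68 (mean log2 value 7.75) and COL1A1 (7.37). PTPRC, the common leukocyte antigen, and DCN and LUM, matrix proteoglycans of fibroblasts, were among those below the filter. The mean of the lists ranged over the 6 arrays from 5.56 to 5.65 for fibroblasts, 5.52 to 5.57 for leukocytes and 5.27 to 5.34 for endothelium. The part of the epithelial markers in the results was not tested.

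TRIM31, a RING ligase known from the gastrointestinal tract and reported to act on the mitochondrial antiviral adaptor MAVS, showed the largest rise of the family. Its log2 values were 10.03, 10.08 and 10.07 in control and 10.59, 10.56 and 10.52 in laminin α1 arrays. The groups lay wholly apart, and the arrays of each group were close together. The means were 10.1 ± 0.03 and 10.6 ± 0.04 (SD, n = 3 per group), a difference of 0.50 (95% interval 0.36 to 0.63, limma adjusted p = 0.000945). The annotation gives TRIM31 3 probe sets, whose differences were 0.50, 0.51 and 0.48, and all 3 passed in the limma fit over all 33297 probe sets (adjusted p = 0.00526, 0.00504 and 0.00642). These probe sets name the same gene and are not independent measurements.

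TRIM16, a member without a RING finger that takes part in the autophagy of damaged membranes, was at 8.74, 8.62 and 8.69 in control and at 9.30, 8.98 and 9.11 in laminin α1 arrays. Again no laminin α1 value reached down to a control value, although the laminin α1 arrays were spread more widely (SD 0.06 and 0.16, n = 3 per group). The difference was 0.45 (95% interval 0.26 to 0.64, limma adjusted p = 0.0136). It lost its call without control replicate 2 (adjusted p = 0.0793) and when all probe sets were tested separately (adjusted p = 0.0626). TRIM16 has a near-identical copy, TRIM16L, and the part of the signal that comes from TRIM16 itself is uncertain. A probe set that names both genes was at 9.45, 9.40 and 9.41 in control and 10.01, 9.86 and 9.77 in laminin α1 arrays.

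TRIM8, a RING ligase known to act in NF-kB, STAT and p53 signalling, was the only member that fell past the threshold. It was at 9.38, 9.31 and 9.23 in control and at 9.12, 8.96 and 8.92 in laminin α1 arrays. Every laminin α1 value lay below every control value. The difference of -0.31 (95% interval -0.48 to -0.14) had a limma adjusted p of 0.0476, just inside the threshold. Of the 6 arrays, leaving out any except laminin α1 replicate 1 ended the call, with adjusted p from 0.0632 to 0.1995 in those 5 fits and 0.0198 without laminin α1 replicate 1.

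**Figure D1:**
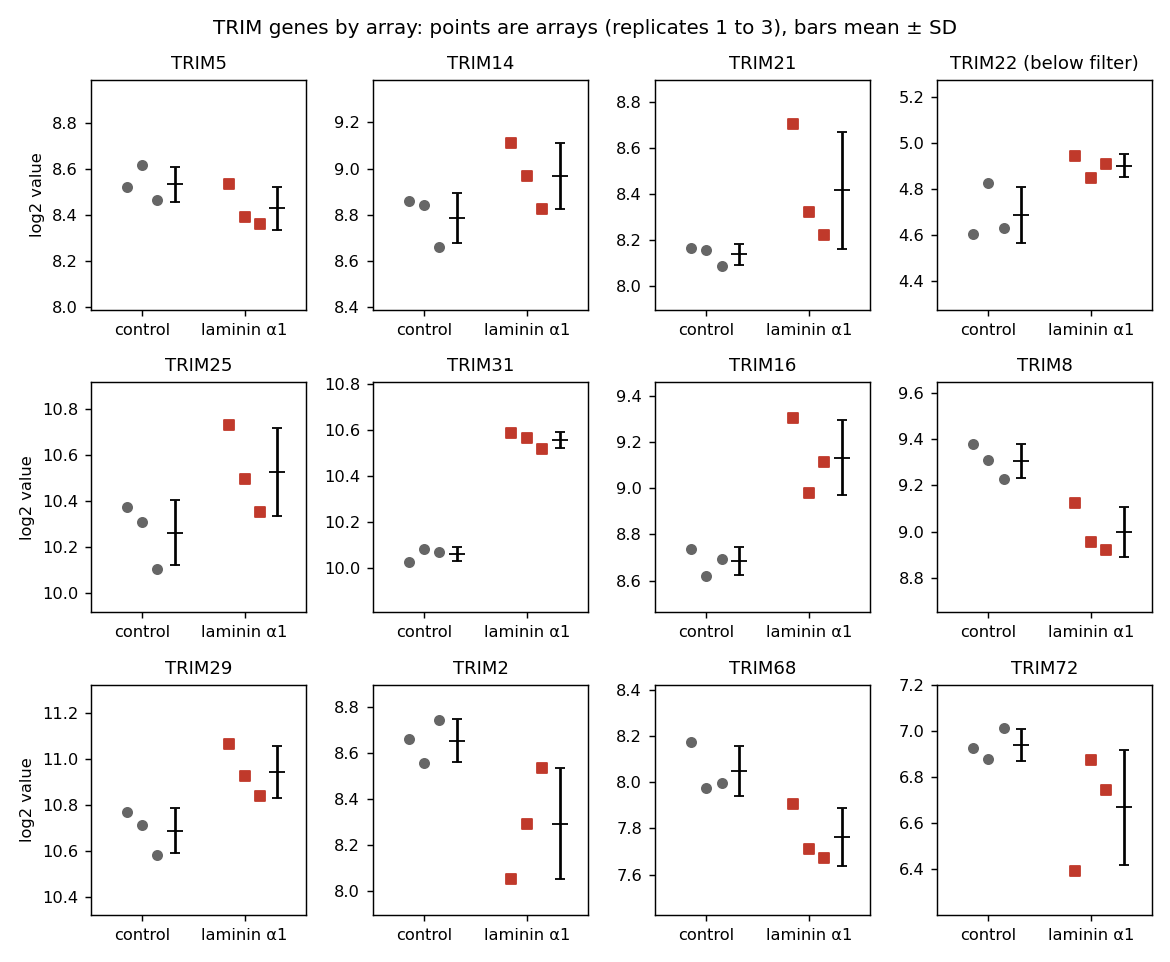
Log2 value of 12 TRIM genes in each array, with control arrays as grey circles and laminin α1 arrays as red squares in the order of replicates 1 to 3; every panel spans 1 log2 unit and the bars give mean ± SD. TRIM31, TRIM16 and TRIM8 have groups that lie apart, while TRIM5, TRIM14 and TRIM25 have groups that overlap. The groups of TRIM21, TRIM22, TRIM29, TRIM2, TRIM68 and TRIM72 also lie apart, although none of these genes passed the threshold and TRIM22 lay below the level filter.

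Among the members known for antiviral defence, TRIM21, a cytosolic receptor for the Fc part of antibodies, was at 8.17, 8.16 and 8.09 in control and 8.71, 8.32 and 8.22 in laminin α1 arrays. The groups did not overlap, but laminin α1 replicate 1 stood well above the other laminin α1 arrays. TRIM21 differed by 0.28 (95% interval 0.03 to 0.53, limma adjusted p = 0.232), and it was 0.13 without laminin α1 replicate 1. TRIM25, the ligase that modifies the RNA sensor RIG-I, was at 10.38, 10.31 and 10.10 in control and 10.73, 10.50 and 10.35 in laminin α1 arrays. Here the lowest laminin α1 array lay below the highest control array. Its difference was 0.26 (95% interval 0.03 to 0.50, limma adjusted p = 0.232), and 0.16 without laminin α1 replicate 1.

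TRIM14, an adaptor of MAVS signalling that lacks a RING finger, was at 8.86, 8.84 and 8.66 in control and 9.11, 8.97 and 8.82 in laminin α1 arrays. The groups overlapped and the difference was 0.18 (95% interval -0.02 to 0.38, limma adjusted p = 0.346). Without laminin α1 replicate 1 it was 0.11, and 0.12 without control replicate 3. TRIM5, which binds the capsid of incoming retroviruses, was at 8.52, 8.62 and 8.47 in control and 8.54, 8.39 and 8.36 in laminin α1 arrays. It was the only one of the 4 with a negative difference, -0.11 (95% interval -0.27 to 0.06, limma adjusted p = 0.543). TRIM22, a nuclear antiviral member, lay below the level filter, with 4.60, 4.83 and 4.63 in control and 4.94, 4.85 and 4.91 in laminin α1 arrays. Its groups did not overlap, and without the filter the difference was 0.21 (limma adjusted p = 0.188), at a signal too low for its size to be read.

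The exact permutation test of 3 against 3 arrays, two-sided, gave p = 0.1 for TRIM21 and TRIM22, the smallest it allows, 0.2 for TRIM25 and 0.3 for TRIM5 and TRIM14. Averaged over the 4 tested genes, and relative to the controls, control replicates 1 to 3 lay at 0.05, 0.05 and -0.10 and laminin α1 replicates 1 to 3 at 0.34, 0.11 and 0.01. By this mean laminin α1 replicate 1 was the highest array and laminin α1 replicate 3 lay below 2 control arrays. By the median over the same 4 genes the controls lay at 0.05, 0.05 and -0.10 and the laminin α1 arrays at 0.40, 0.18 and 0.06, so that the groups did not overlap.

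The other interferon-regulated genes give a comparison for these members. Of 37 interferon-stimulated genes, 22 rose and 0 fell, 59.5% against 2.69% higher over all genes, with a median log2 difference of 0.44. IFITM1 (1.24), IFI44L (0.74), XAF1 (0.69), IFITM3 (0.82), IFIT1 (0.66) and HERC6 (0.57), given here as log2 differences, were the 6 with the smallest p. Their list was chosen with earlier results of these data known, so its direction is not independent support. The mean of the list was -0.07 to 0.06 in control and 0.63, 0.41 and 0.48 in laminin α1 arrays, so that all 3 laminin α1 arrays were higher. No test was made of the difference between the lists.

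**Figure D2:**
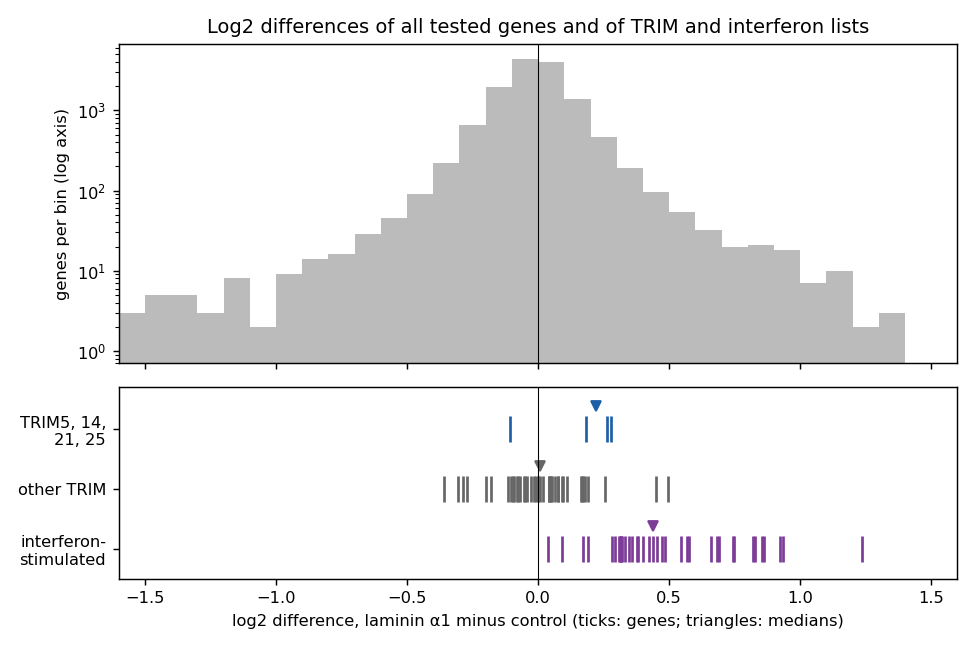
Upper panel: number of tested genes per bin of 0.1 log2 units of the difference laminin α1 minus control, on a log axis. Lower panel: the same difference for single genes, as ticks, with a triangle at each list's median of 0.22 (TRIM5, TRIM14, TRIM21 and TRIM25), 0.01 (other TRIM genes) and 0.44 (interferon-stimulated genes); differences beyond the axis limits are not drawn.

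Sequence before the transcription starts was read for what the members share. Stretches of 250 bases before each start came from RefSeq (GRCh38.p14) and were available for 42 of the 54 members, with 57 starts. Both strands were searched for the letters GAAA, any 2 bases and GAAA again, the core of the element through which interferon-activated factors bind DNA. The letters occurred before 7 of 57 starts (12.3%) of TRIM genes, against 3.02% of all 35116 starts and 24 of 43 (55.8%) starts of the interferon-stimulated genes. The 7 stretches are shown as a description of the sequence. Each is written 5′ to 3′ on the strand of its gene, with up to 20 bases on either side and the matched letters, or their reverse complement, in capitals.
TRIM5, chr11:5685075-5685121, minus strand: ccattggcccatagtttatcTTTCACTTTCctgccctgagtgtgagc
TRIM14, chr9:98119223-98119268, minus strand: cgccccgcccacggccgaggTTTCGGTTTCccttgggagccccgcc
TRIM16, chr17:15683002-15683051, minus strand: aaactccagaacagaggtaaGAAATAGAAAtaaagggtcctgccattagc
TRIM26, chr6:30213565-30213620, minus strand: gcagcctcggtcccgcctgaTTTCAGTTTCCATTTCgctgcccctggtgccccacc
TRIM44, chr11:35662720-35662769, plus strand: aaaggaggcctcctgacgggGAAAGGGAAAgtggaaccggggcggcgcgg
TRIM2, chr4:153151926-153151975, plus strand: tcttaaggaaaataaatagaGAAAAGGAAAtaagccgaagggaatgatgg
TRIM69, chr15:44736446-44736495, plus strand: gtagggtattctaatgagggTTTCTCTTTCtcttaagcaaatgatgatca

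The stretch of TRIM26 holds 2 overlapping matches, and that of TRIM2 lies before 1 of its 6 starts. Of the 6 tested genes in this group, 1 (TRIM16) rose past the threshold, beside 5.29% of all genes called and 2.69% called higher. The other 5 did not pass. Their log2 differences were 0.18 (TRIM14), 0.17 (TRIM26), -0.01 (TRIM44), -0.11 (TRIM5) and -0.36 (TRIM2). TRIM69 lay below the level filter. The letters were not found in the windows of TRIM31, TRIM21 and TRIM25. The letters TTC, any 3 bases and GAA, the core of the site bound by STAT dimers, which reads the same on both strands, occurred before 8 of 57 starts (14%) of TRIM genes and 6.57% of all starts. They were in no window of TRIM5, TRIM14, TRIM21 or TRIM25 and in that of TRIM16. TRIM22 and TRIM8 were among the 12 members without a window, so neither was searched for these or the other letters. The 50 bases after each start were not searched. A match of letters is a description and shows no binding.

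Among the members without a RING finger, TRIM29, an epithelial protein, was at 10.77, 10.71 and 10.58 in control and 11.06, 10.92 and 10.84 in laminin α1 arrays. All laminin α1 values were above all control values, with a difference of 0.25 (95% interval 0.08 to 0.43) that did not pass (limma adjusted p = 0.119). It passed without laminin α1 replicate 3 (adjusted p = 0.0493). Of the 5 tested genes of this class, with TRIM44 and TRIM66, 4 had a positive difference, beside 45.6% of all genes. TRIM16 alone passed (20%, beside 5.29% of all genes called and 2.69% called higher).

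The chromatin class comprises TRIM24, TRIM28 and TRIM33, which carry a PHD finger and a bromodomain. TRIM24, a coregulator of nuclear receptors, was at 9.17, 9.26 and 9.24 in control and 9.28, 9.40 and 9.57 in laminin α1 arrays, with a difference of 0.19 (limma adjusted p = 0.264). Its laminin α1 arrays lay above its control arrays, the lowest by a narrow margin. TRIM28, the corepressor of the zinc finger proteins that silence retroelements, had a difference of 0.04 (95% interval -0.11 to 0.20). TRIM33, which acts on SMAD4, had a difference of -0.07 (95% interval -0.29 to 0.14), which was 0.02 without laminin α1 replicate 1. TRIM66, a related testis protein without a RING finger, had a difference of 0.09, which was -0.03 without control replicate 3 and -0.02 with array weights. Of 14 tested partners of the TRIM28 repressor complex, 1 rose and 0 fell (7.14%, beside 5.29% of all genes called and 2.69% called higher): MPHOSPH8, a subunit of the complex that spreads silent chromatin, rose by log2 0.47 (limma adjusted p = 0.0123), and lost its call without control replicate 1 or 2 (adjusted p up to 0.0717).

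The class with NHL repeats held 4 tested genes, all with negative differences (-0.36 to -0.05), beside 45.6% positive over all genes. The groups overlapped for 3 of them, and 0 passed, beside 5.29% of all genes called. TRIM2, a ligase of neurofilaments in axons, was at 8.66, 8.56 and 8.74 in control and 8.05, 8.29 and 8.54 in laminin α1 arrays. Although the groups did not overlap, the laminin α1 arrays were widely spread (SD 0.24 against 0.09 in control, n = 3). Its difference was -0.36 (95% interval -0.61 to -0.11, limma adjusted p = 0.114), with -0.24 without laminin α1 replicate 1 and a call without laminin α1 replicate 3 (-0.48, adjusted p = 0.0105). TRIM3, another NHL member, had a difference of -0.10.

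The class with a RING finger and, as its only named C-terminal domain, a SPRY domain, the target-binding fold of TRIM5, TRIM21 and TRIM25, had 20 tested genes. SPRY domains also occur in members counted in other classes, such as TRIM16 and TRIM14. Of the 20, 12 had a positive and 8 a negative difference, with a median of 0.03, and 0 passed the limma test. Over all genes 45.6% were positive and 5.29% were called. TRIM68, a ligase first described as a coactivator of the androgen receptor, was at 8.18, 7.97 and 8.0 in control and 7.91, 7.71 and 7.67 in laminin α1 arrays. The groups lay apart, and the difference was -0.29 (95% interval -0.48 to -0.10, limma adjusted p = 0.0960). It passed without laminin α1 replicate 1 (adjusted p = 0.0373). TRIM72, a membrane repair protein of muscle, was at 6.93, 6.88 and 7.01 in control and 6.39, 6.87 and 6.75 in laminin α1 arrays. Laminin α1 replicate 1 was far below the rest, and the difference of -0.27 was -0.13 without it. TRIM4, a ligase of RIG-I, had a difference of -0.18 (limma adjusted p = 0.287), and TRIM59, a membrane-anchored member, -0.20 (adjusted p = 0.296).

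**Figure D3:**
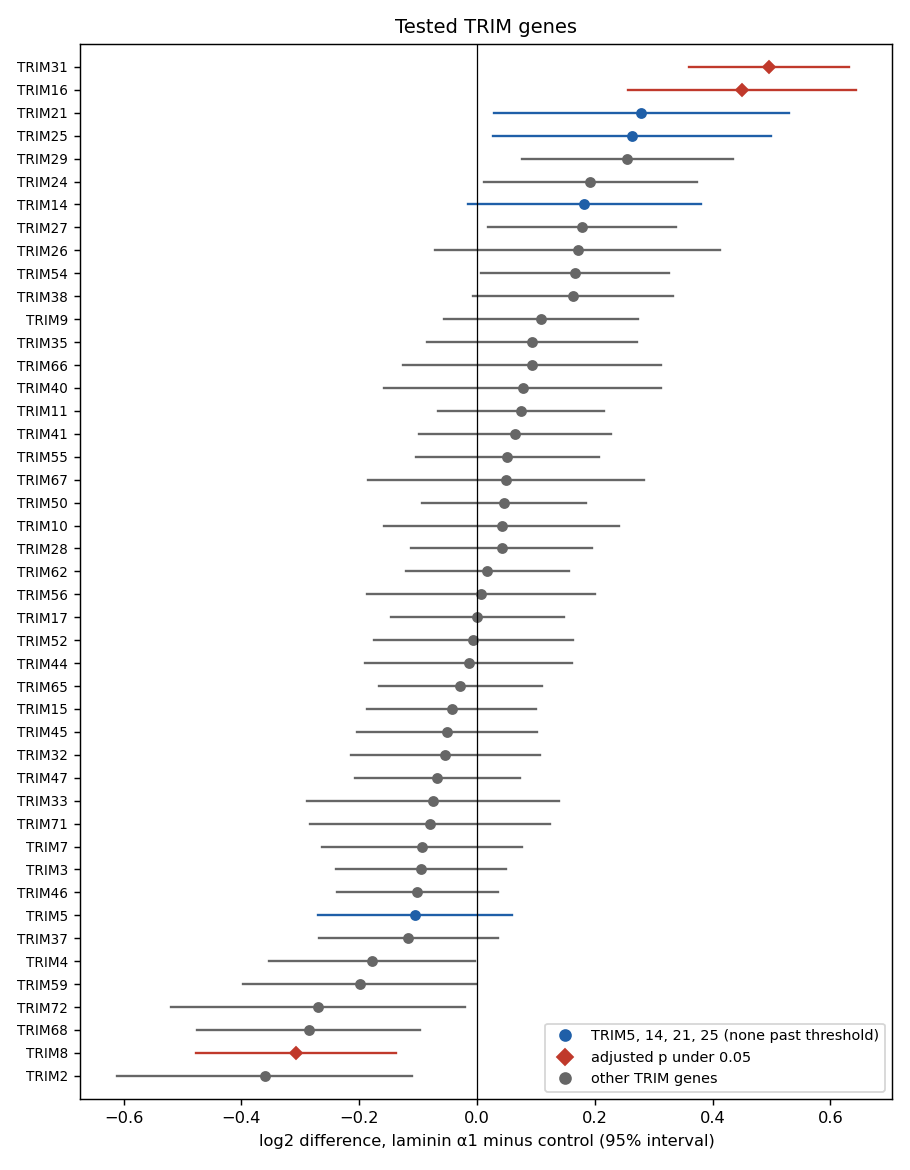
Log2 difference of the 45 tested TRIM genes with its 95% interval from limma, ordered by size. Red diamonds mark TRIM31, TRIM16 and TRIM8, with adjusted p under 0.05, and blue marks TRIM5, TRIM14, TRIM21 and TRIM25, whose points lie between -0.11 and 0.28.

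Counted over the family, 25 differences were positive and 20 negative, beside 45.6% positive over all genes. The groups lay wholly apart for 12 of the 45 genes (26.7%), 7 higher and 5 lower, beside 21.6% of all genes tested. An unadjusted p under 0.05 was found for 14 members (31.1%), 8 higher and 6 lower, and for 16.7% of all genes. Log2 differences of more than 0.25 in size were seen for 9 members (20%) and 9.67% of all genes. The spread between arrays was like that of the array as a whole, with a median SD of 0.0721 in control and 0.0946 in laminin α1 arrays for the family, and of 0.0750 and 0.0932 for all genes.

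Beside the genes already given, TRIM27, TRIM54 and TRIM46 also had groups that lay apart, and they are named after their values were seen. TRIM27, a nuclear SPRY member, was at 8.95, 8.81 and 8.79 in control and 9.10, 9.01 and 8.97 in laminin α1 arrays, a difference of 0.18. TRIM54, a microtubule-bound protein of muscle, was at 6.16, 5.99 and 6.08 against 6.17, 6.31 and 6.26, so its groups were separated by a very small gap, with a difference of 0.17. TRIM46, a microtubule organiser of axons, was at 6.59, 6.54 and 6.62 against 6.47, 6.46 and 6.51, a difference of -0.10. None of the 3 passed in limma (adjusted p = 0.232, 0.275 and 0.470).

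**Figure D4:**
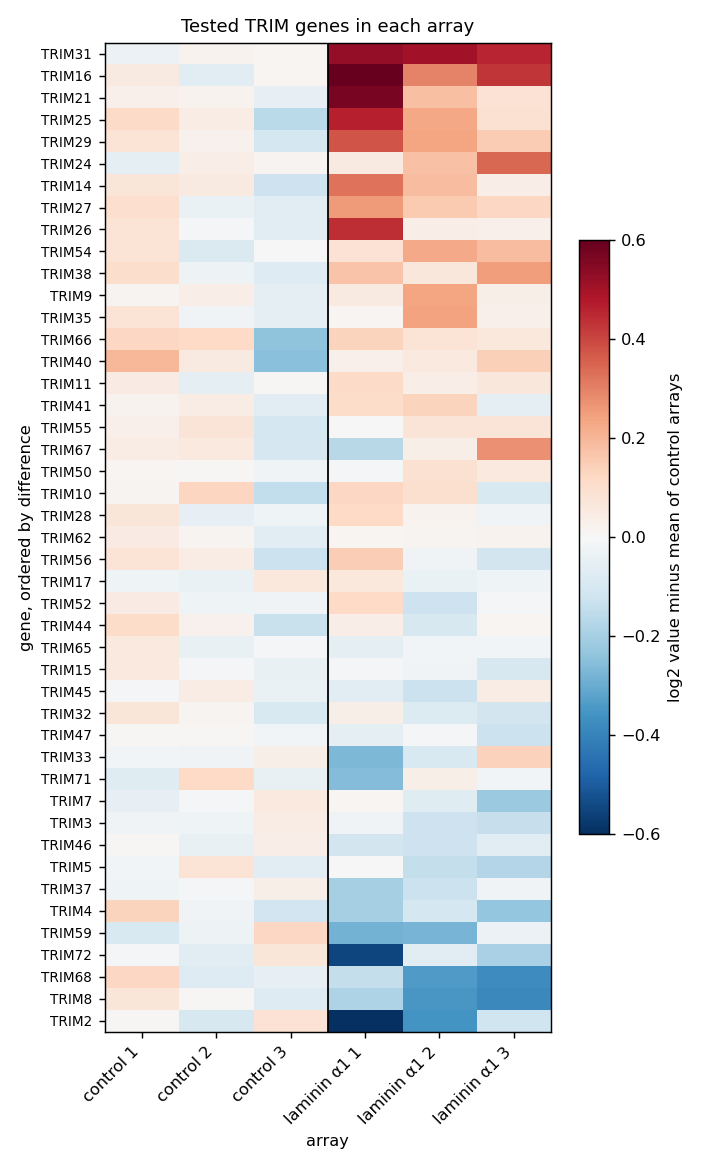
Log2 value of the 45 tested TRIM genes in each array minus the mean of the control arrays, from blue (-0.6) through white (0) to red (0.6), with genes ordered by difference. TRIM31 is evenly red over the 3 laminin α1 arrays, while TRIM21, TRIM25 and TRIM26 are darkest in laminin α1 replicate 1.

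Several members lie beside each other on the chromosomes. On chromosome 6, TRIM31 is followed in the order of measured genes by TRIM40, TRIM10, TRIM15 and TRIM26, whose log2 differences were 0.08, 0.04, -0.04 and 0.17, and 0 of these passed. On its other side RNF39, PPP1R11 and POLR1H had differences of 0.29, 0.25 and 0.28, also not past the threshold (limma adjusted p = 0.107, 0.0926 and 0.143). Of the 4 nearest measured genes on either side, 3 were tested for TRIM16 and 7 for TRIM8, and 0 of these passed. Over all genes 5.29% were called. On chromosome 11, TRIM5 and TRIM22 are direct neighbours among the measured genes, and their differences had opposite signs. TRIM22 lay below the level filter and TRIM5 did not pass, so these signs are uncertain.

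**Figure D5:**
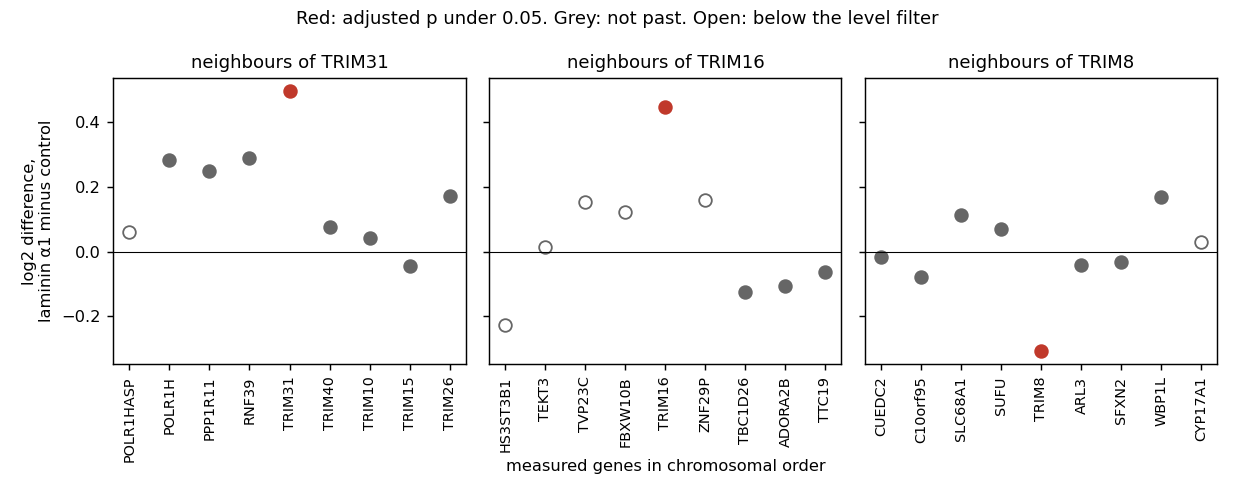
Log2 difference, laminin α1 minus control, of TRIM31, TRIM16 and TRIM8 (red) and of the 4 nearest measured genes on either side, in chromosomal order. Grey points did not pass and open points lay below the level filter; values without the filter are drawn, from -0.31 for TRIM8 to 0.50 for TRIM31.

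The genes around TRIM25 in RNA sensing were also read. The list was chosen with earlier results known. Of 17 tested genes of the RIG-I pathway and partners of TRIM25, 1 rose and 0 fell (5.88%, beside 5.29% of all genes called and 2.69% called higher), with a median difference of 0.09. The groups lay wholly apart for 58.8% of the 17, 8 higher and 2 lower, beside 21.6% of all genes. IFIH1, a sensor of long double-stranded RNA, rose by log2 0.44 (limma adjusted p = 0.0264), and lost its call without control replicate 1, 2 or 3 or laminin α1 replicate 1 (adjusted p up to 0.0930). RIGI itself had a difference of 0.41 (adjusted p = 0.0730), DHX58, a related helicase, 0.38 (0.0554), IRF7 0.31 (0.133), the kinase IKBKE 0.23 (0.105) and MAVS, the adaptor that TRIM14 and TRIM31 act on, 0.17 (0.271). None of the last 5 passed. DHX58 and IRF7 passed without laminin α1 replicate 3 (adjusted p = 0.0146 and 0.0304).

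Ubiquitin-activating and ubiquitin-conjugating enzymes, which TRIM ligases need, had 1 of 20 tested genes higher and 0 lower (5%, beside 5.29% of all genes called and 2.69% called higher). The 1 was UBA7, the activating enzyme of the ubiquitin-like protein ISG15, which rose by log2 0.38 (limma adjusted p = 0.0297) and lost its call without control replicate 2 or 3 or laminin α1 replicate 1 (adjusted p up to 0.135). UBE2L6, its conjugating enzyme, had the same difference of 0.38 and did not pass (adjusted p = 0.127), except without laminin α1 replicate 3 (adjusted p = 0.0198). UBE2N and UBE2V2, which build the ubiquitin chains that TRIM5 signals through, had differences of -0.08 and -0.14. Of 7 listed transcription factors of the interferon response, 5 were measured and tested, in a list chosen with earlier results known. All 5 had positive differences, beside 45.6% of all genes. Of the 5, 1 rose and 0 fell (20%, beside 5.29% of all genes called and 2.69% called higher). The gene that rose was IRF9, the DNA-binding subunit of the interferon-activated complex, by log2 0.46 (limma adjusted p = 0.0269). It lost its call without control replicate 1, 2 or 3 or laminin α1 replicate 2 (adjusted p up to 0.0937).

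Family members that carry other names were measured too. PML, the organiser of nuclear bodies, which is also raised by interferon, had a difference of 0.27 (limma adjusted p = 0.207), MID1, a microtubule-bound ligase, -0.09, and MEFV, the pyrin of an inflammasome, 0.05, which was -0.02 without laminin α1 replicate 2. MID2, TRIML1 and TRIML2 lay below the filter.

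The 9 members below the level filter had mean values of 3.91 to 5.38, and 0 of them passed in the limma fit without the filter. They were TRIM22, TRIM36, TRIM42, TRIM48, TRIM51, TRIM60, TRIM61, TRIM63 and TRIM69. TRIM48 and TRIM51 belong to groups of near-identical copies, so their values are uncertain. A further 9 TRIM symbols occurred only on probe sets that name several genes and were not members: TRIM6, TRIM13, TRIM34, TRIM39, TRIM43, TRIM49, TRIM58, TRIM73 and TRIM74. The probe set shared by TRIM6 and TRIM34, neighbours of TRIM5, was at 6.00, 6.01 and 5.91 in control and 6.34, 6.10 and 6.16 in laminin α1 arrays. Its groups lay apart, but the difference of 0.22 did not pass in the limma fit over all probe sets (adjusted p = 0.303).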

How the data were processed

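The authors deposited log2 expression values, 1 per probe set and array. For these the submitters' processing notes name RMA and, as software, Affymetrix Expression Console 1.1. RMA brings the arrays to nearly one distribution, which would hide a shift common to all genes. Array medians lay between 6.45 and 6.49 over 33297 probe sets. Precision is limited by having 3 arrays in each group, and background levels per probe set were not used here. P values measure the spread between passages. They do not measure a spread between clones, whose number the labels do not state.

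Probe sets naming 1 gene in the platform annotation were used (19460, with 1754 naming several and 12083 not listed), and the brightest was taken per gene. Laminin α1 minus control was estimated by limma 3.58.1 (lmFit, then eBayes; R 4.3.3) over 13812 genes, without covariates, with Benjamini-Hochberg adjustment. The fit was run on simulated data with noise drawn independently for each gene and array, so that run does not cover correlated arrays. Other filters, probe set rules, scalings, variance models, a replicate block and leaving out each array were tried as alternatives.

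Named genes were TRIM5, TRIM14, TRIM21, TRIM22 and TRIM25, members past the threshold, the 6 highest and 6 lowest differences, the neighbours of TRIM5 and the chromatin class, the 3 brightest members, and up to 6 genes per list by p. Members and lists were chosen with earlier results of these data known.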

Additional observations from a re-analysis of the deposited data

Results flagged for a closer look

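A signal was seen among probe sets left out of the test because they name several genes. The probe set that names both TRIM16 and its copy TRIM16L was higher in the arrays labelled laminin α1 by log2 0.45 (limma over all 33297 probe sets, adjusted p = 0.0278). It was higher in 3 of 3 laminin α1 arrays than in any control array. Of 20 probe sets that list a TRIM gene together with other genes, it was the only one past the threshold in that fit. The same fit called 2.4% of the brightest probe sets of the 18417 genes.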

How the results depend on the processing

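Of the 45 tested TRIM genes, 2 rose and 1 fell past the threshold. The rise of TRIM31 held in all 16 alternatives, with log2 differences of 0.48 to 0.52 and adjusted p from 2.35e-06 to 0.00885. The number higher was 1 with all probe sets tested separately and 1 at an adjusted p under 0.01, and the number lower was 0 without the filter, with all probe sets separately, with arrays centred on their medians, with a trended and robust eBayes, and under 0.01. Leaving out 1 array gave 1 to 3 higher and 0 to 2 lower members, 0 of TRIM5, TRIM14, TRIM21, TRIM22 and TRIM25 past the threshold, and medians of the other tested TRIM genes from -0.0324 (without control replicate 3) to 0.0414 (without control replicate 1), with 0.0073 over all arrays. Array weights gave 11 higher and 7 lower members and called 4 of those 5 genes, among 4691 genes called in all. That estimate of the weights stopped before it converged and gave control replicate 2 a weight of 10.7 against 0.32 to 3.03 for the other arrays. With the replicate number as a block, 4 members were higher and 3 lower and 1 of the 5, TRIM25, passed (adjusted p = 0.0241), with 1596 genes called in all against 730. The labels do not state whether same-numbered arrays share a passage. Correlations of their deviations from the group means were 0.39, 0.02 and 0.53 for replicates 1 to 3. Between arrays of different numbers they were -0.487 to 0.162. Not every array correlated best with its own number, and a shared passage was not tested. Signs turned for genes with differences near 0. With array weights they were -0.0189 for TRIM66 and, among marker genes, 0.0165 for KRT19, 0.0675 for COL3A1 and 0.106 for COL1A2. With arrays centred on their medians COL3A1 was at 0.00219 and COL1A2 at 0.00280, and with quantile normalization repeated COL1A2 was at 0.00390. Leaving out 1 array gave differences from -0.0286 to 0.156 for TRIM66, -0.181 to 0.0233 for TRIM33, -0.0455 to 0.180 for IRF2, -0.0217 to 0.125 for MEFV, -0.00992 to 0.0949 for KRT8, -0.0450 to 0.0570 for COL3A1, -0.0681 to 0.0629 for COL1A2, -0.0331 to 0.0587 for PDGFRB and -0.0540 to 0.00751 for ITGAM. No value with a turned sign passed the threshold, with adjusted p of 0.0890 or more. The cause of these changes was not tested.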
